A study of Mus musculus with 6 samples.

Results

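Glycolysis splits glucose into pyruvate, and lactate dehydrogenase turns pyruvate into lactate, which leaves the cell through monocarboxylate carriers. Hypoxia-inducible factor (HIF) couples this pathway to oxygen: when oxygen is present, prolyl hydroxylases mark its alpha subunit for destruction, and when oxygen is scarce the subunit accumulates and switches on glucose transporters, glycolytic enzymes and stress genes. Growing B cells take up much glucose and rely on these genes.

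The 35 genes examined are the steps of glycolysis with its transporters and regulators (22 genes) and HIF1 alpha with its hydroxylases and typical targets (13 genes), chosen by name. A gene was measured where a probe set carried its symbol and no other, and the probe set with the highest mean over the 6 arrays stood for it. That held for 32 of the 35 genes, 19 of glycolysis and 13 of the HIF group, out of 19937 genes with such a probe set. Gapdh had 11 probe sets, each with several symbols, and it, Gpi1 and Eno1 were not analysed here. Ero1l, an oxidase of protein folding, is carried on the array under its current symbol Ero1a.

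RNA came from the mouse B-cell line 230-238 carrying a plasmid for GFP and FOG1 (3 arrays) or for GFP alone (3 arrays). FOG1, encoded by Zfpm1, is a cofactor of GATA transcription factors. Both groups had 3 days in RPMI1640 medium after infection, a sort for GFP fluorescence and 4 more days in culture, and no oxygen level is stated in the sources used here. The titles call the arrays biological replicates but do not say whether each had its own infection, so the p-values rest on the spread between these arrays, which may be technical.

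Zfpm1 had log2 signals of 10.21, 10.16 and 10.17 on the FOG1 arrays, against 9.41, 9.49 and 9.43 on the GFP arrays, so every array went with its label (log2 change 0.74, SE 0.0447, adjusted p = 0.00382 by limma with Benjamini-Hochberg adjustment). Over all 34760 probe sets, 78 passed an adjusted p of 0.05 and any pair of arrays correlated at 0.9925 to 0.996. Of 13 measured B-lineage markers, 12 reached the median signal of all values, as did 2 of 10 myeloid, 1 of 8 erythroid and megakaryocyte, 2 of 8 T and NK cell and 7 of 10 fibroblast and stromal markers. The B-lineage markers had groups apart for 6 of the 13 (46.2%, against 19.6% of all probe sets), 3 higher and 3 lower with FOG1. None of them passed, and Cd79a had the lowest adjusted p (log2 change -0.41, limma adjusted p = 0.0884). The mean log2 signal of the myeloid markers was 6.34 to 6.41 on FOG1 arrays and 6.53 to 6.59 on GFP arrays. That mean includes Itgam, an integrin chain and the 1 myeloid marker that passed (log2 change -1.11, limma adjusted p = 0.00747). All 10 myeloid markers had negative log2 changes, with a median of -0.089. The fibroblast and stromal markers had mean log2 signals of 8.60, 8.41 and 8.07 on FOG1 replicates 1, 2 and 3, against 8.37, 8.45 and 8.49 on the GFP arrays, so that the FOG1 arrays differed more among themselves than the GFP arrays did. For 6 of the 10 stromal markers, FOG1 replicate 1 lay above and FOG1 replicate 3 below every GFP array, a pattern looked for after the values were seen and found in 4.41% of all probe sets. The part of these marker differences in the results below was not tested.

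No glycolysis or hypoxia gene passed the test. The count was 0 of 32 in either direction at a limma adjusted p of 0.05, where 0.224% of all probe sets passed, and the lowest adjusted p of a member was 0.376. At an unadjusted p of 0.05, 2 of the 32 passed (6.25%), Hif1a with a positive and Pdk1 with a negative change, against 12.5% of all probe sets. The FOG1 and GFP arrays did not overlap for 7 of the 32 genes (21.9%), 3 higher and 4 lower with FOG1, against 19.6% of all probe sets (9.13% higher and 10.5% lower). Both shares of the members were near or below those of the whole array.

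The intervals describe the probe sets that the rule took and rest on the spread between these arrays. Hk1 and Bnip3 had other intervals at their dimmer probe sets, given below. Each of the 32 had a 95% interval of its log2 change (not adjusted for the number of genes) inside -0.5 to 0.5, a factor of 1.41, and 29 lay inside -0.25 to 0.25, a factor of 1.19. The changes ran from -0.18 (Ndrg1) to 0.12 (Ero1a), with a median of -0.003, against a median of -0.01 over all probe sets. The median size of a change, whatever its sign, was 0.048 for the members and 0.072 for all probe sets. The median SD between replicates was 0.05 log2 units for the members and 0.083 for all probe sets. In RNA from bulk cultures, fewer cells expressing a gene and less of its RNA in each cell cannot be told apart.

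**Figure D1:**
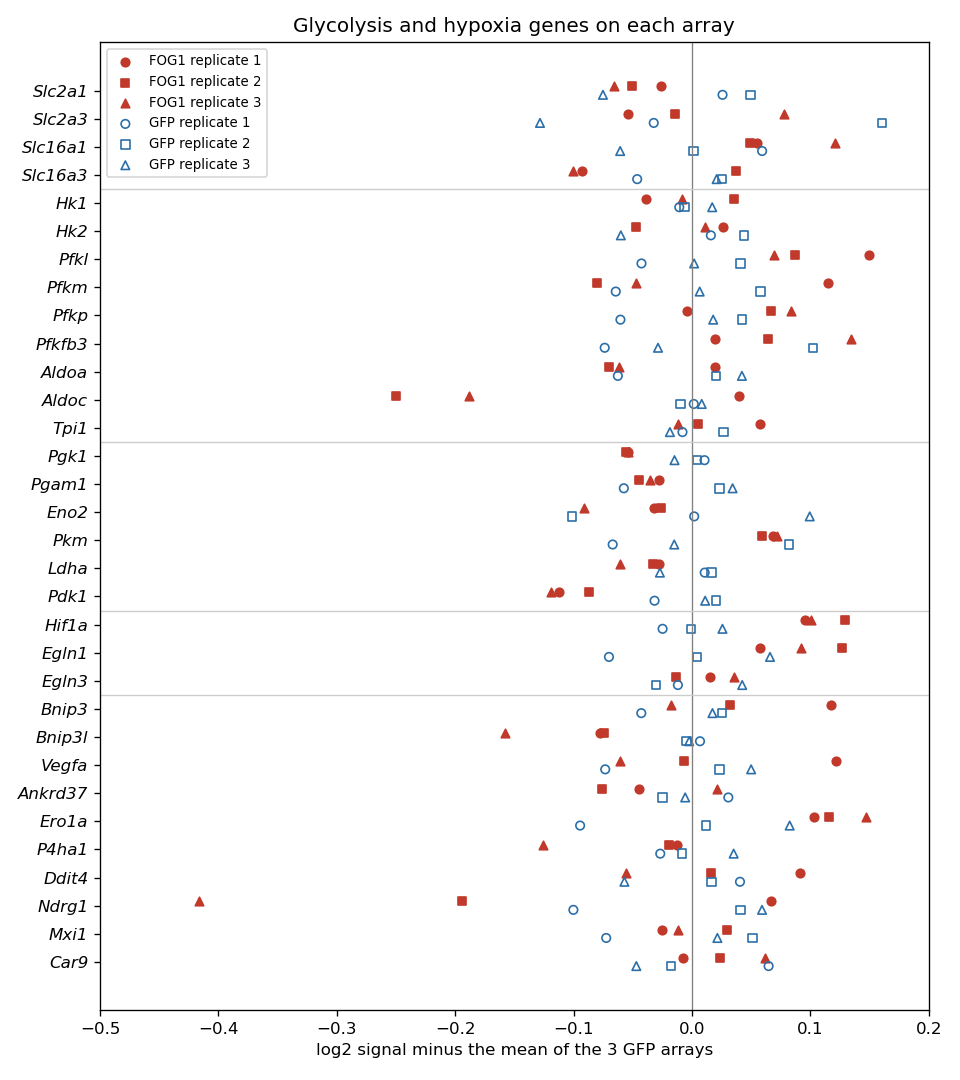
Log2 signal of each of the 32 genes on each array, minus the mean of the 3 GFP arrays (horizontal axis, log2 units). Filled red points are FOG1 arrays and open blue points GFP arrays, with 1 shape for each replicate number. Grey lines part transport, upper glycolysis, lower glycolysis and pyruvate, HIF factor and oxygen sensors, and HIF targets. Most points of both colours mix, and the widest spread is that of Ndrg1 on the FOG1 arrays, at 8.93, 8.67 and 8.44 log2 units.

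Glucose enters through Slc2a1 and Slc2a3, and lactate leaves through Slc16a1 and Slc16a3. None of these 4 had groups apart. Slc2a1, the GLUT1 transporter of most dividing cells, had log2 signals of 10.29, 10.26 and 10.25 on FOG1 arrays, against 10.34, 10.36 and 10.24 on GFP arrays. Its groups overlapped, because the third GFP array lay below all FOG1 arrays (log2 change -0.05, 95% interval -0.17 to 0.07). Slc2a3, the GLUT3 transporter, averaged 7.99 ± 0.07 on FOG1 arrays and 7.99 ± 0.15 on GFP arrays (SD, n = 3 each).

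The lactate carrier gene Slc16a1 (MCT1) had log2 signals of 11.17, 11.17 and 11.24 on FOG1 arrays, against 11.18, 11.12 and 11.06 on GFP arrays. The first GFP array lay among the FOG1 arrays, and the log2 change of 0.07 had an SE of 0.0511 (limma adjusted p = 0.576). Slc16a3 (MCT4), the carrier typical of strongly glycolytic cells, averaged 7.21 ± 0.08 on FOG1 arrays and 7.26 ± 0.04 on GFP arrays (SD, n = 3 each).

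The first steps of glycolysis trap glucose and commit it to breakdown. Hk2, the inducible hexokinase, had log2 signals of 7.88, 7.80 and 7.86 on FOG1 arrays, against 7.87, 7.89 and 7.79 on GFP arrays. The groups fully mixed, with a log2 change of -0.003 and a 95% interval of -0.12 to 0.12. Of the 3 phosphofructokinase genes, Pfkl, the liver-type subunit, had signals of 8.95, 8.89 and 8.87 with FOG1, against 8.76, 8.84 and 8.81 with GFP alone. All FOG1 arrays lay above all GFP arrays by a small margin (log2 change 0.10, SE 0.0476, limma adjusted p = 0.436). The muscle-type Pfkm and the platelet-type Pfkp had log2 changes of -0.004 and 0.05 with groups that overlapped.

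Pfkfb3 makes fructose 2,6-bisphosphate, the activator of phosphofructokinase. Its log2 signals were 8.77, 8.81 and 8.88 on FOG1 arrays, against 8.67, 8.85 and 8.72 on GFP arrays, and the groups overlapped (log2 change 0.07, 95% interval -0.08 to 0.22). Among the aldolases, which split the sugar into smaller ones, Aldoc had signals of 7.65, 7.36 and 7.42 with FOG1, against 7.62, 7.60 and 7.62 with GFP alone. FOG1 replicates 2 and 3 lay below every GFP array and FOG1 replicate 1 above them, and the difference of -0.13 on the log2 scale had an SE of 0.0798 (limma adjusted p = 0.526). The difference was -0.22 without FOG1 replicate 1 and -0.075 without FOG1 replicate 2. The main isoform Aldoa and the isomerase gene Tpi1 had log2 changes of -0.04 and 0.02, and their groups overlapped.

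The later steps yield ATP and pyruvate. Of the 6 measured genes from Pgk1 to Pdk1, 5 had negative log2 changes, with a median of -0.045, and 3 of the 6 had all FOG1 arrays below all GFP arrays, where 10.5% of all probe sets did. These were Pgk1, Ldha and Pdk1, and the sizes were small.

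Pgk1, phosphoglycerate kinase, had log2 signals of 11.16, 11.16 and 11.16 on FOG1 arrays, against 11.23, 11.22 and 11.20 on GFP arrays. The FOG1 arrays were nearly identical and all lower, by 0.05 on the log2 scale (change -0.05, SE 0.0398, limma adjusted p = 0.598). Ldha, the lactate dehydrogenase chain that favours lactate, had signals of 12.60, 12.59 and 12.57 with FOG1, against 12.64, 12.64 and 12.60 with GFP alone. Its groups touched, the highest FOG1 array and the lowest GFP array being equal at 12.60 to the decimals shown (log2 change -0.04, 95% interval -0.14 to 0.06).

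Pdk1 encodes a kinase that switches off pyruvate dehydrogenase and so holds back the entry of pyruvate into the citrate cycle. Its log2 signals were 8.19, 8.21 and 8.18 on FOG1 arrays, against 8.27, 8.32 and 8.31 on GFP arrays. All FOG1 arrays were lower (log2 change -0.11, a ratio of 0.929 to GFP, SE 0.0419, limma adjusted p = 0.382).

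Pkm, pyruvate kinase, had log2 signals of 11.53, 11.52 and 11.53 on FOG1 arrays, against 11.39, 11.54 and 11.44 on GFP arrays. The second GFP array lay above the FOG1 arrays, so the groups overlapped (log2 change 0.07, SE 0.0522, limma adjusted p = 0.624). The mutase gene Pgam1 and the neuronal-type enolase gene Eno2 had log2 changes of -0.04 and -0.05, with groups that overlapped. Eno2 was the 1 gene of the glycolysis group whose mean lay below the median of all values, so part of its signal can be background.

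**Figure D2:**
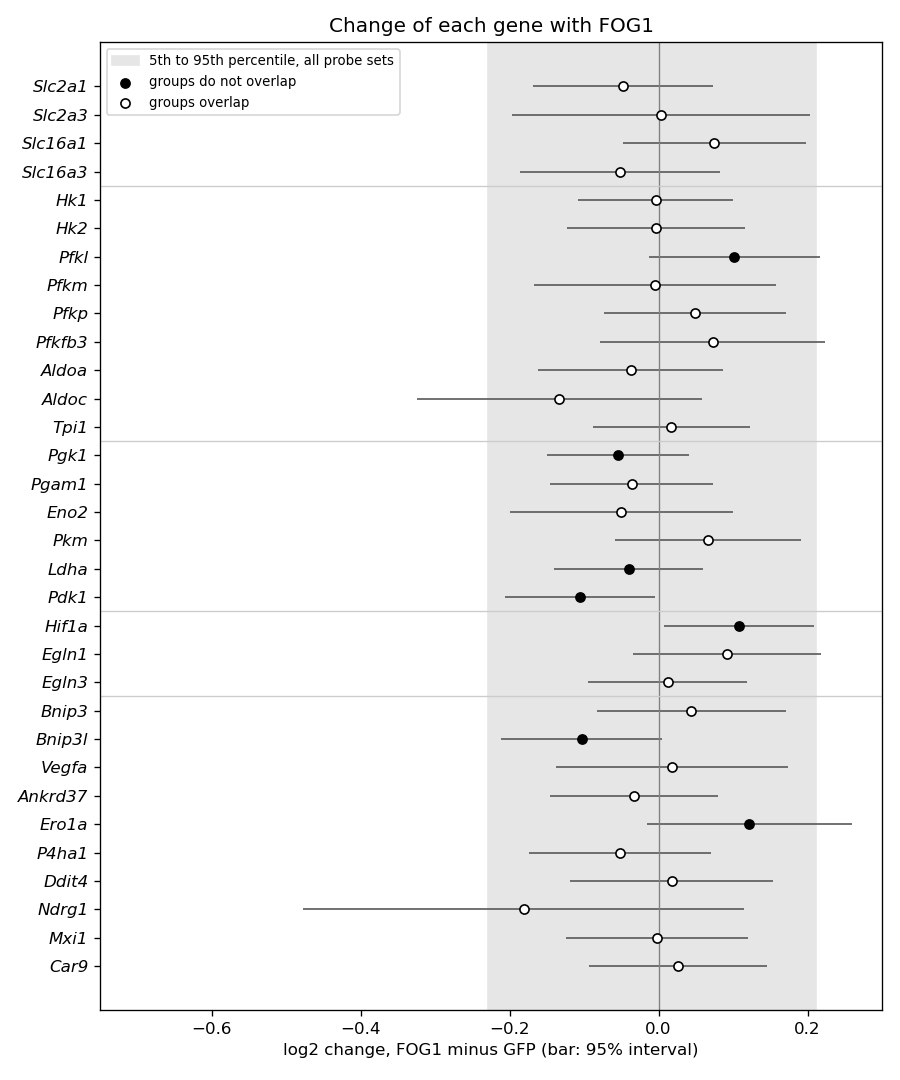
Log2 change, FOG1 minus GFP, of each gene with its 95% interval (bars, limma). Filled points mark the 7 genes whose groups did not overlap, open points the others, and the grey band spans the 5th to the 95th percentile of all probe sets (-0.23 to 0.21). Every point lies inside the band, and the intervals of Hif1a and Pdk1 are the 2 that leave out 0.

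Hif1a, the oxygen-regulated subunit itself, had the smallest p of all members. Its log2 signals were 10.52, 10.56 and 10.53 on FOG1 arrays, against 10.40, 10.43 and 10.45 on GFP arrays. All FOG1 arrays were higher, by a log2 change of 0.11 or 1.08-fold (SE 0.0418, 95% interval 0.01 to 0.21), which missed the threshold (limma adjusted p = 0.376). HIF1 alpha is regulated mainly as a protein, which these arrays do not measure.

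The hydroxylase gene Egln1 (PHD2), whose product marks HIF1 alpha for destruction, had log2 signals of 9.31, 9.38 and 9.34 on FOG1 arrays, against 9.18, 9.25 and 9.32 on GFP arrays. The third GFP array lay among the FOG1 arrays (log2 change 0.09, SE 0.0524, limma adjusted p = 0.506). Egln3 (PHD3), a hydroxylase that HIF itself induces, averaged 6.71 ± 0.02 with FOG1 and 6.70 ± 0.04 with GFP alone (SD, n = 3 each), below the median of all values.

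The 10 HIF targets were split evenly, 5 with positive and 5 with negative log2 changes, with a median of 0.008. Ero1a had signals of 9.43, 9.44 and 9.47 on FOG1 arrays, against 9.23, 9.34 and 9.41 on GFP arrays. Its groups did not overlap, although the third GFP array came within 0.02 log2 units of the first FOG1 array (log2 change 0.12, SE 0.0573, limma adjusted p = 0.436), and the change was 0.075 without GFP replicate 1. Bnip3l (NIX), a mitophagy receptor, had signals of 11.43, 11.43 and 11.35 with FOG1, against 11.51, 11.50 and 11.50 with GFP alone. All FOG1 arrays were lower, with a change of -0.10 on the log2 scale (SE 0.0449, limma adjusted p = 0.41).

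Ndrg1, a stress-response gene that HIF induces, had the largest change of the 32 and the least certain one. Its log2 signals were 8.93, 8.67 and 8.44 on FOG1 arrays, against 8.76, 8.90 and 8.92 on GFP arrays. FOG1 replicate 1 lay above every GFP array and the other two FOG1 arrays below every one, so the log2 change of -0.18 had an interval of -0.48 to 0.11 (limma adjusted p = 0.574). It was -0.305 without FOG1 replicate 1 and -0.064 without FOG1 replicate 3, so its size and its place as the largest rest on single arrays. Vegfa, the angiogenic growth factor, had signals of 10.82, 10.69 and 10.64 with FOG1, against 10.63, 10.72 and 10.75 with GFP alone. These mixed fully (log2 change 0.02, 95% interval -0.14 to 0.17).

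The other 6 targets had log2 changes between -0.05 and 0.04 and groups that overlapped. They were P4ha1, a collagen prolyl hydroxylase subunit, at -0.05, Ankrd37, an ankyrin repeat gene, at -0.03 and Mxi1, an antagonist of MYC, at -0.002. Ddit4 (REDD1), an inhibitor of mTORC1, was at 0.02, the carbonic anhydrase gene Car9 at 0.03 and Bnip3, the relative of Bnip3l, at 0.04. Car9, which is nearly silent in most oxygenated cells, averaged 6.60 ± 0.03 with FOG1 and 6.57 ± 0.06 with GFP alone (SD, n = 3 each), below the median of all values.

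The promoters were searched for the core that HIF binds, the letters ACGTG or GCGTG. In RefSeq sequences of build GRCm38.p6, 29 of the 32 genes had 43 start sites. Within the 250 bases before the start, on either strand, ACGTG was found in 26 of the 43 windows (60.5%), against 17.8% of 21263 windows of protein-coding genes and 16.6% of all 32851 windows. The share was 85.7% of 14 windows of the HIF group and 48.3% of 29 windows of the glycolysis group. The HIF group was chosen by name for its link to HIF, so its share is a description and no test. A start site can lie inside a gene, so its window need not be a promoter, and such windows were counted too. For Vegfa the ACGTG match was in the downstream window (chr17:46025164-46025413), and the upstream Vegfa window held 0. GCGTG was found in 20 of the 43 (46.5%, against 33.8% of protein-coding and 28.2% of all windows). The member windows were also richer in G and C, with a median of 62.8%, against 55.6% for protein-coding genes, and the part of this in the motif shares was not tested.

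The longer CACGTG, which contains ACGTG on both strands and is the site of MYC and MAX, was in 6 of the 43 windows (14.0%, against 6.63% of protein-coding and 6.02% of all windows). AGATAA, a form of the GATA motif, was in 4 of the 43 (9.3%, against 8.81% of protein-coding and 9.99% of all windows). These 4 windows belong to 2 genes, 3 to Pfkm, of which a pair overlap, and 1 to Vegfa. Windows of a gene can overlap, and by gene ACGTG was found for 22 of the 29. No share by gene over all genes is given, and this count cannot be set against the shares of windows. These matches describe letters in a window and do not show binding. Shown here are the windows of Hif1a, Pgk1 and the HIF target Ankrd37, and the Ldha window that held the most ACGTG matches of any member window. That window held 5, counting a CACGTG once on each strand, and the other Ldha window, not shown, held 0. The log2 changes of Hif1a, Ldha, Pgk1 and Ankrd37 were 0.11, -0.04, -0.05 and -0.03. GCGTG is not marked in the sequences. Capitals mark ACGTG on either strand, and each sequence runs 5′ to 3′ on the gene's strand to the base before the start:
Hif1a, chr12:73907617-73907866, plus strand: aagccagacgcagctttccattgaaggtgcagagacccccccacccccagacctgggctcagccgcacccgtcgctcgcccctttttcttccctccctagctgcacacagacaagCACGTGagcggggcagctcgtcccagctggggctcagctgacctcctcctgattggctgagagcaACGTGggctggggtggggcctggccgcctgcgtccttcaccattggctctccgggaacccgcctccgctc
Ldha, chr7:46845554-46845803, plus strand: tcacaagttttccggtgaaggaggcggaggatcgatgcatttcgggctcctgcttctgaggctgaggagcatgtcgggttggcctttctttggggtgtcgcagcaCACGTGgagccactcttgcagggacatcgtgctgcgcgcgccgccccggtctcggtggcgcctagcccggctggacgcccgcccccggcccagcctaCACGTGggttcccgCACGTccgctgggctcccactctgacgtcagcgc
Pgk1, chrX:106186850-106187099, plus strand: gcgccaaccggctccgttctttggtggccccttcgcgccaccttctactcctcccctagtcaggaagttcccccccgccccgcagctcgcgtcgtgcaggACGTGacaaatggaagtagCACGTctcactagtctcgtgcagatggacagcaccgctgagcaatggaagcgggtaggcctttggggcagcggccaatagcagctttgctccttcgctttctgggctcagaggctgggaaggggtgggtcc
Ankrd37, chr8:45999851-46000100, minus strand: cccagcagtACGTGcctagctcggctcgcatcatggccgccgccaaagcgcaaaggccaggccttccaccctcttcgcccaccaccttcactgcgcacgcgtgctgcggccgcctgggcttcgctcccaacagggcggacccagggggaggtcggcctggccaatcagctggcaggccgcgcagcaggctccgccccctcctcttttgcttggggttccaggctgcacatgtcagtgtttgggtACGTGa

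Of the 32 genes, 4 had a second probe set with 1 symbol, and for Hk1, the constitutive hexokinase, the choice mattered. The brighter Hk1 probe set, which the rule took, had log2 signals of 12.77, 12.84 and 12.80 on FOG1 arrays, against 12.79, 12.80 and 12.82 on GFP arrays. Its annotation is 1 accession, which 17 probe sets list, and 15 of these name the ribosomal protein gene Rpl17 as well. Its log2 change was -0.004.

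The other Hk1 probe set, annotated with 8 accessions, had log2 signals of 8.64, 8.43 and 8.38 on FOG1 arrays, against 8.65, 8.75 and 8.68 on GFP arrays. All FOG1 arrays were lower, FOG1 replicate 1 by the smallest margin (log2 change -0.21, SE 0.0778, limma adjusted p = 0.362). The 95% interval at this probe set, -0.40 to -0.02, left out 0 (not adjusted for the number of genes). For Bnip3, the brighter probe set gave a log2 change of 0.04 and the dimmer one -0.17, with signals of 8.29, 8.13 and 7.94 with FOG1, against 8.28, 8.31 and 8.27 with GFP alone. The 95% interval at the dimmer Bnip3 probe set was -0.38 to 0.05. Both Bnip3 probe sets list the same number of accessions (3), so that count does not choose between them. Where each probe set lies in the genome was not examined.

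Bnip3l and Pkm gave -0.10 and 0.07 at the brighter and -0.05 and -0.01 at the dimmer probe set. Neither Hk1, Bnip3, Bnip3l nor Pkm passed at either. In the dimmer probe sets of Hk1 and Bnip3, as in Aldoc and Ndrg1, FOG1 replicate 1 was the highest FOG1 array. Without FOG1 replicate 3 the dimmer Bnip3 probe set had a log2 change of -0.077. Among the FOG1 arrays alone, the mean of the stromal markers was highest on replicate 1 and lowest on replicate 3. The same order held for Ndrg1 and the dimmer probe sets of Hk1 and Bnip3. Pdgfrb, a growth factor receptor of stromal cells, had log2 signals of 8.97, 8.59 and 7.59 on FOG1 arrays, against 8.42, 8.54 and 8.65 on GFP arrays. The collagen gene Col1a1 had 9.90, 9.61 and 8.99 on FOG1 arrays, against 9.53, 9.73 and 9.70 on GFP arrays. Both are among the 6 of 10 stromal markers with FOG1 replicate 1 above and FOG1 replicate 3 below every GFP array. Others on the list did not follow. Dcn (5.84, 5.79 and 5.92) and Thy1 (8.38, 8.29 and 8.43) were highest on FOG1 replicate 3 among the FOG1 arrays. Of the 32 genes at the probe set the rule took, Aldoc and Ndrg1 were the 2 (6.25%) with FOG1 replicate 1 above and FOG1 replicate 3 below every GFP array. The part of the stromal markers in these values was not tested.

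**Figure D3:**
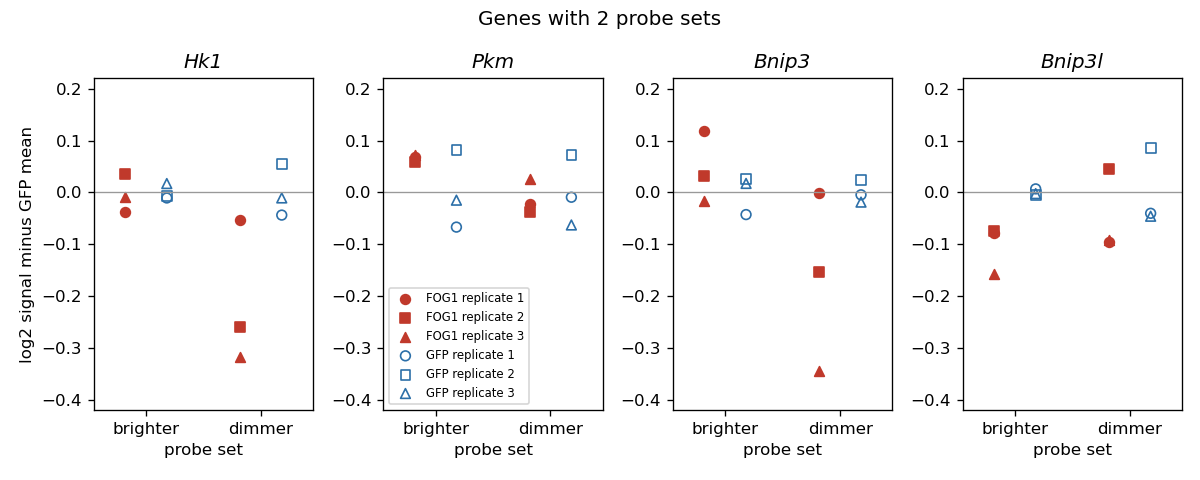
Log2 signal on each array minus the mean of the 3 GFP arrays (vertical axis) at the brighter and the dimmer probe set of Hk1, Pkm, Bnip3 and Bnip3l. Filled red points are FOG1 arrays and open blue points GFP arrays. At the dimmer Hk1 and Bnip3 probe sets, FOG1 replicates 2 and 3 lie lowest.

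The neighbouring pathways did not pass either. None of the 21 measured other isoforms of glycolytic genes passed, and 16 of the 21 had negative log2 changes. Of the 21, 11 had mean signals below the median of all values. For this list and those below, no share of signs over all probe sets is given, and the median change over all probe sets was -0.01. Ldhb, the lactate dehydrogenase chain that favours pyruvate, had log2 signals of 5.88, 5.76 and 5.96 on FOG1 arrays, against 6.19, 6.24 and 6.12 on GFP arrays. All FOG1 arrays were lower (log2 change -0.32, SE 0.0677, limma adjusted p = 0.195), at a level where part of the signal can be background. The glucose transporter gene Slc2a6 and the pyruvate carrier gene Slc16a7 (MCT2) had log2 changes of -0.21 and -0.19 with groups apart (limma adjusted p = 0.218 and 0.363). Slc16a7 averaged 5.36 on FOG1 and 5.55 on GFP arrays, so part of its signal can be background too.

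Of 6 measured pentose phosphate genes, none passed and 5 had groups apart, 2 higher and 3 lower with FOG1 (83.3%, against 19.6% of all probe sets, 9.13% higher and 10.5% lower). Pgls, a lactonase gene, was at 0.15 (limma adjusted p = 0.324), and the transaldolase gene Taldo1 and the dehydrogenase gene Pgd had changes of -0.10 each (limma adjusted p = 0.478 and 0.489). Of 22 genes of pyruvate dehydrogenase and the citrate cycle, none passed, 16 had positive changes and the median was 0.02. The succinate dehydrogenase subunit genes Sdhc and Sdhb went opposite ways, at 0.17 and -0.13, and the fumarase gene Fh1 was at -0.17 (limma adjusted p = 0.269, 0.333 and 0.34).

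None of 12 regulators of HIF passed, with a median of 0.05. Those with the smallest p were the prolyl hydroxylase gene Egln2 (0.10), the ubiquitin ligase scaffold gene Cul2 (0.13) and the asparagine hydroxylase gene Hif1an (0.09), with limma adjusted p of 0.414, 0.473 and 0.517. None of 29 further HIF targets passed, and 21 of the 29 had negative changes, with a median of -0.03. Of the 29, 10 had mean signals below the median of all values. The stanniocalcin genes Stc2 and Stc1 were at 0.26 and -0.12 and the histone demethylase gene Kdm3a at 0.12 (limma adjusted p = 0.339, 0.365 and 0.377). Stc2 and Stc1 had mean signals below the median of all values, where part of the signal can be background.

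On the list of the integrated stress response and mTORC1 none of 22 passed, and the median was -0.008. The glucose-sensing factor gene Mlxipl (ChREBP) had log2 signals of 7.07, 7.02 and 7.09 on FOG1 arrays, against 7.34, 7.23 and 7.24 on GFP arrays. All FOG1 arrays were lower (log2 change -0.21, SE 0.0505, limma adjusted p = 0.219). Rheb, the activator of mTORC1, had a change of 0.19 and the kinase gene Mtor of -0.16, both with groups apart (limma adjusted p = 0.265 and 0.294).

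**Figure D4:**
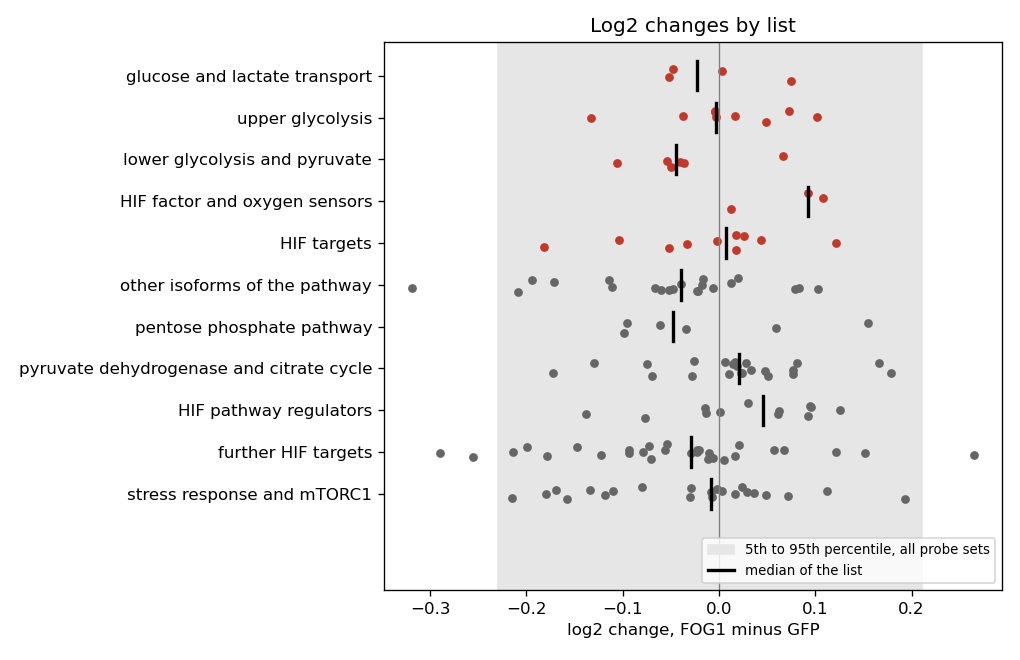
Log2 change, FOG1 minus GFP (horizontal axis), of each measured gene, by list. Red points are the 32 glycolysis and hypoxia genes in their 5 groups and grey points the neighbouring pathways, black bars are list medians, and the grey band spans the 5th to the 95th percentile of all probe sets. All red points lie inside the band, and Ldhb at -0.32 is the lowest grey point.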

How the data were processed

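The values are log2 signals as deposited by the authors, 1 for each of 34760 probe sets on 6 arrays, ranging from 3.12 to 14.07. The submitters' processing notes name affy, and how background was corrected, arrays normalized and probes summarised is not given in the sources used here. Labelled sense-strand cDNA was hybridised, per the labels' protocols. Normalization can hide a shift shared by most genes, and signals near background understate changes. Groups came from the titles. Symbols came from the platform annotation, checked through Entrez identifiers (0 changed).

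All probe sets were fitted with limma 3.58.1 in R 4.3.3 (lmFit, eBayes, no block), with Benjamini-Hochberg adjustment over 34760 and a threshold of 0.05. In simulated data the fit recovered 4.6% of log2 changes of 0.25, 55.2% of 0.5 and 85.8% of 1. The simulation used independent normal noise with the SD of each probe set, and 200 changed probe sets drawn from all 34760. The members had a smaller median SD (0.05, against 0.083 for all probe sets), so these rates are not those of the members. The number of arrays limits precision. The genes and lists were chosen with earlier results of these data known. Values per array are given for the 12 members with the smallest p and 5 fixed ones, and up to 3 genes are named per neighbouring list. Deviations of arrays with the same number correlated at -0.07, 0.01 and -0.04, so replicate numbers were not taken as pairs. Alternatives were other normalization, centring, filters, probe sets, variance models, array weights, the block and leaving out each array. Figures used matplotlib 3.10.9 in Python 3.11.15.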

Additional observations from a re-analysis of the deposited data

How the results depend on the processing

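No member passed under any alternative run, the lowest adjusted p of a member being 0.183 (limma), with 0 to 3 members at an unadjusted p under 0.05. With the replicate block, 9 probe sets passed in all, 0 members did, and Zfpm1 (0.74) had a limma adjusted p of 0.0975, against 0.000712 to 0.0433 elsewhere. Leaving out 1 array gave 17 to 38 called probe sets, 8 to 12 members with groups apart (11 without FOG1 replicate 1, 12 without GFP replicate 1; fewer arrays overlap less by construction), glycolysis medians of -0.035 to -0.007 and HIF medians of 0.006 to 0.025. After quantile normalization 5 members had groups apart, against 7, with Ero1a and Ldha overlapping. The share of all probe sets with groups apart is not given for these alternatives. The member counts under them therefore cannot be read as a rise or fall particular to the members. Centring on array medians added 0.026 to the log2 change of every probe set alike, and so gave medians of 0.021 for glycolysis and 0.043 for HIF genes. The glycolysis median was -0.036 when the probe sets of a gene were averaged, and -0.036 with the dimmer probe set of genes with 2, an alternative chosen after seeing the data.

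Of 449 member values under the alternatives, 417 kept their sign and 32 turned, in 11 genes with changes of at most 0.066 in size. Of the 32, 4 turned through the shift that centring gives all probe sets. The other 28 fall in the same 11 genes, which have no settled direction. Hk1 was 0.021 after quantile normalization, 0.022 after centring and 0.003 with array weights, Hk2 0.009 and 0.022 after quantile normalization and centring, and Vegfa -0.004 after quantile normalization. Pfkm was 0.021 and Mxi1 0.023 after centring. Bnip3 was -0.061 with the mean over its probe sets and -0.166 at the dimmer one, and Pkm -0.012 at the dimmer one. Without 1 array, the log2 change ranged from -0.061 to 0.084 for Slc2a3, -0.024 to 0.013 for Hk1, -0.033 to 0.019 for Hk2, -0.064 to 0.034 for Pfkm, -0.003 to 0.031 for Tpi1, -0.003 to 0.033 for Egln3, -0.034 to 0.057 for Vegfa, -0.02 to 0.054 for Ddit4 and -0.038 to 0.023 for Mxi1. Among the 7 members with changes over 0.1 in size, leaving out 1 array moved Ndrg1 (-0.305 to -0.064), Aldoc (-0.22 to -0.075) and Ero1a (0.075 to 0.163) by over 1.5 times but kept their sign. Some smaller changes also moved much without turning, such as P4ha1 (-0.072 to -0.016) and Pfkfb3 (0.036 to 0.124). The cause was not tested. No pseudocount applies to log2 values.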
